A study of Mus musculus with 4 samples.

Results

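The genes described here act in the G2 phase of the cell cycle and in mitosis. They were named as a set of 41 symbols, and 38 of them had a probe set with their own symbol on the mouse Affymetrix arrays, among 12393 genes measured. Ccnb1, Espl1 and Cdca8 had none, so only their promoters are described here. Each gene was read from the probe set with the highest mean log2 signal over the 4 arrays. The series compared a pair of cell populations sorted by flow cytometry from the back skin of mice at postnatal day 49. The bulge basal group (2 arrays) held living GFP-positive cells with high surface α6 integrin and CD34, and the total epidermis group (2 arrays) held all living GFP-positive cells, bulge cells included. Both groups came from K14-GFP-actin mice, in which the keratin 14 promoter, active in basal keratinocytes, drives a GFP-actin fusion. Whether the replicates of a group came from different mice or different sorts is not labelled, so each p-value here rests on sample-to-sample spread that may be technical. The cell type label calls all 4 samples bulge cells, so the groups were taken from the sorted population and the titles.

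Entry into mitosis is driven by the kinase CDK1 bound to A-type and B-type cyclins, with Plk1 and the Aurora kinases as further drivers. The spindle checkpoint holds the anaphase promoting complex in check until chromosomes are attached, and that complex, activated by Cdc20, then marks cyclin B and securin for destruction. Many of these genes are transcribed late in the cell cycle through CCAAT boxes, bound by NF-Y, and through a cell cycle homology region, an element at which the DREAM complex represses them in resting cells and B-MYB and FOXM1 activate them in dividing cells. Bulge stem cells are known to divide rarely in telogen, the resting phase of the hair cycle.

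Values are probe set signals on a linear scale, replicate 1 before replicate 2, and differences are bulge basal minus total epidermis on the log2 scale. A background level, set from olfactory, vomeronasal and taste receptor genes, lay at a signal of 150. Cd34, which the sort used, had signals of 15697 and 14034 on the bulge basal arrays, against 844 and 1144 on the total epidermis arrays, as a check of the labels, and 9 of 10 bulge stem cell markers were higher on both bulge basal arrays. Over all genes tested, 20.5% were lower and 18% higher without overlap of the groups. Counted in this way, melanocyte markers were lower for 6 of 7 genes and higher for 1, fibroblast markers lower for 3 and higher for 2 of 8, endothelial markers lower or higher for 0 of 6, sebaceous gland markers lower for 3 and higher for 1 of 6, and hair germ, matrix and shaft markers lower for 3 and higher for 1 of 8. Suprabasal markers were lower for 2 of 6 genes and higher for 0. The 3 lower fibroblast genes (Col3a1, Pdgfra and Dcn) were below background on all 4 arrays. So were the 3 lower hair germ, matrix and shaft genes (Krt35, Lef1 and Foxn1). The 2 higher fibroblast genes, Col1a2 and Fbln1, were above background on all 4 arrays, 7.79-fold and 5.35-fold higher in bulge basal cells. Fibroblast sums were 5551 and 2753 on the bulge basal arrays, against 995 and 862 on the total epidermis arrays. The median signal of all probe sets was 128.8 and 126.7 on the bulge basal arrays and 145.01 and 123.6 on the total epidermis arrays. The number of arrays limits the precision. In these bulk samples, fewer cells of a dividing type and less RNA per cell cannot be told apart.

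G2 and mitosis genes had lower signals in bulge basal cells than in total epidermis. Both bulge basal arrays lay below both total epidermis arrays for 35 of the 38 genes, and 0 of 38 lay above, against 20.5% and 18% of all genes tested. The median difference was -1.52 (quartiles -1.85 and -1.08), where it was -0.02 over all genes (quartiles -0.41 and 0.38). Summed over the 38 genes, the signal was 9894 and 11617 on the bulge basal arrays, against 29026 and 26016 on the total epidermis arrays. Both bulge basal sums lay below both total epidermis sums. Of the 38 genes, 10 were above background on both bulge basal arrays and 27 on both total epidermis arrays. Setting all lower signals to the background level gave a median of -0.95, against 0.0 over all genes. With this floor 26 of the 38 genes were lower without overlap, and the share over all genes was not computed.

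No single gene of the set passed the test. In the limma fit on group alone, 0 of 38 had an adjusted p under 0.05, as had 0% of all genes in either direction. At an unadjusted p under 0.05, 26 were lower and 0 higher, against 5.29% and 5.18% of all genes. The limma-trend fit called 1 of 38 lower (Cdc25c), against 0.524% of all genes, and 0 higher, against 0.557%. A limma fit over the 7249 genes with a group mean above background called 2 lower (Anln and Mki67), against 1.63%, and 0 higher, against 1.43%. Members below background on both bulge basal arrays, such as Melk and Mad2l1, passed this filter only through total epidermis, where they were high. In every fit with this filter, calls of such members follow in part from the filter. The counts of calls moved when 1 array was left out. Limma-trend called 4 members lower without bulge basal replicate 1, where it called 1.75% of all genes lower, 13 without bulge basal replicate 2, where it called 1.59%, and 0 without either total epidermis array, where it called 0% of all genes. The filtered fit, which 31 members entered, called 9 lower without bulge basal replicate 1 and 23 without bulge basal replicate 2, against 5.16% and 4.32% of its genes. It called 1 without total epidermis replicate 1 and 4 without total epidermis replicate 2, against 1.45% and 1.56%. Anln and Mki67 were not called by the filtered fit without total epidermis replicate 1, where it called Melk, and Cdc25c was among those that limma-trend lost without either total epidermis array. Both groups were sorted for GFP driven by the keratin 14 promoter, and leukocyte markers were lower on the bulge basal arrays. The sum of 9 T cell markers was 342 and 457 on the bulge basal arrays, against 2050 and 3608 on the total epidermis arrays. That of 12 Langerhans cell and macrophage markers was 1576 and 2027 on the bulge basal arrays, against 13050 and 14103 on the total epidermis arrays. Both bulge basal arrays were lower for 8 of the 9 and 10 of the 12. Above background on both bulge basal arrays were 0 of the 9 T cell markers and 4 of the 12. Above background on both total epidermis arrays were 5 of the 9 and 8 of the 12. Ptprc, the pan-leukocyte phosphatase, had signals of 41.4 and 30.7 on the bulge basal arrays, against 411 and 452 on the total epidermis arrays. Markers of the infundibulum and isthmus, the upper parts of the follicle, were lower for 5 of 6 genes, with sums of 6439 and 8704 on the bulge basal arrays, against 35747 and 42930 on the total epidermis arrays. The part of these cells in the result was not tested.

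**Figure D1:**
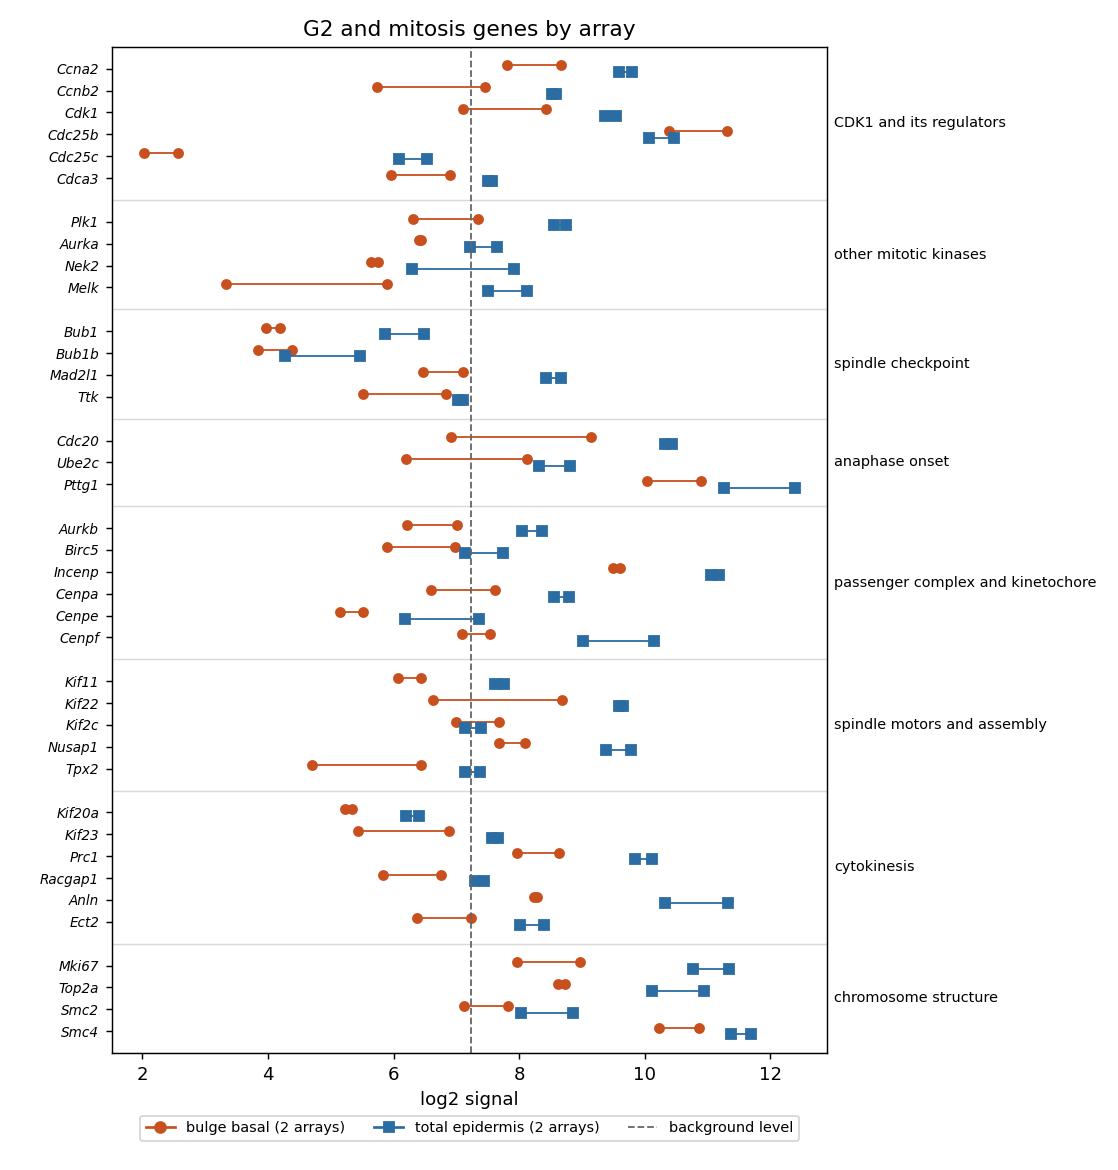
Log2 signal (horizontal axis) of the 38 G2 and mitosis genes, grouped by role, on the 2 bulge basal arrays (circles) and the 2 total epidermis arrays (squares), with a line joining replicates and a dashed line at the background level. Bulge basal circles lie left of total epidermis squares for 35 of 38 genes. The groups overlap for Cdc25b, Bub1b and Kif2c.

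The promoters of these genes share motifs that the choice of genes did not use. RefSeq promoters of build GRCm38.p6, 250 bases before to 50 after each start, were found for 34 of the 41 symbols, all but Ccna2, Cdc25c, Aurkb, Incenp, Tpx2, Kif20a and Smc4. A match of the cell cycle homology core (TTTGAA on either strand, or TTTAAA, which reads the same on both) was present for 27 of 34, or 79.4%, against 24.5% of 9887 genes on the arrays with a promoter in the table. CCAAT on either strand was present for 27 of 34, 79.4%, against 42.3%, and the 2 orientations of CCAAT can overlap. Both motifs occurred together for 24 of 34, 70.6%, against 9.93% of genes on the arrays and 12.2% of all 27025 genes of the table. The 34 include Ccnb1, Espl1 and Cdca8, which held both motifs but had no probe set with their own symbol. Of 59 CCAAT matches, 57 began upstream of the start, and 28 of 41 core matches began within 50 bases of it. Mad2l1, Melk, Nusap1 and Pttg1 held neither motif in this window. Among measured genes, the median difference was -1.46 for the 21 with both motifs and -1.56 for the 10 without both (ranges -2.60 to -0.75 and -3.20 to 0.59).

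The promoters below belong to the 6 genes with the largest differences among those above background on both total epidermis arrays that held both motifs. They run from 250 bases before to 20 after the start, 5′ to 3′ on the gene's strand, and capitals mark each CCAAT match and each core match in either orientation. The Mki67 promoter lies at chr7:135716360-135716629, minus strand, with 3 CCAAT matches followed by a pair of core matches. That of Cdc20 lies at chr4:118437324-118437593, minus strand, and that of Cenpf at chr1:189688067-189688336, minus strand. The promoter of Kif22 lies at chr7:127042401-127042670, minus strand, that of Ccnb2 at chr9:70421535-70421804, minus strand and that of Top2a at chr11:99024170-99024439, minus strand.
Mki67: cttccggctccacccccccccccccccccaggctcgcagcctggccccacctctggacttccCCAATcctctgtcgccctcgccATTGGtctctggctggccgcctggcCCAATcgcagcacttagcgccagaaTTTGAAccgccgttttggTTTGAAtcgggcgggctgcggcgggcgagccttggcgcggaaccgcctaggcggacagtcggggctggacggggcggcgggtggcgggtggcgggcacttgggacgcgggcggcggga
Cdc20: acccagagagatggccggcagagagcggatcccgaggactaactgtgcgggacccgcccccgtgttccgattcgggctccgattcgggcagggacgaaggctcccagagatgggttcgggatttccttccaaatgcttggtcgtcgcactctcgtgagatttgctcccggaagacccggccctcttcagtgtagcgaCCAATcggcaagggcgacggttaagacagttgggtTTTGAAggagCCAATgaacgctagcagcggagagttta
Cenpf: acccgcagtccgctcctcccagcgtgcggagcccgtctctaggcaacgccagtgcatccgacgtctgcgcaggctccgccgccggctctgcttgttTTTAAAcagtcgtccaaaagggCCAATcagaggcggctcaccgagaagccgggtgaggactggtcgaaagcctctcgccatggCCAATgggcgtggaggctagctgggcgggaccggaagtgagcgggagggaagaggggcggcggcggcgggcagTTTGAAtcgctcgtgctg
Kif22: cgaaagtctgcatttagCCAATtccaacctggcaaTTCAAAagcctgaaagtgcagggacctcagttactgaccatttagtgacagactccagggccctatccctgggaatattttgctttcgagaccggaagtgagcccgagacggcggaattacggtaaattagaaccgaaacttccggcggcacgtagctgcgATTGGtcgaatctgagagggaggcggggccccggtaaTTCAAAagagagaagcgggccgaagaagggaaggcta
Ccnb2: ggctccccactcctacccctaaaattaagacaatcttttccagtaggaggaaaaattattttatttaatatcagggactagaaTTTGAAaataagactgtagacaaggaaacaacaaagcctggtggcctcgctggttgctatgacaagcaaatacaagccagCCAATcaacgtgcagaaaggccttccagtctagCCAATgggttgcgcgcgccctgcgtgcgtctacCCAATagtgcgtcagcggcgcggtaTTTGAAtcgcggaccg
Top2a: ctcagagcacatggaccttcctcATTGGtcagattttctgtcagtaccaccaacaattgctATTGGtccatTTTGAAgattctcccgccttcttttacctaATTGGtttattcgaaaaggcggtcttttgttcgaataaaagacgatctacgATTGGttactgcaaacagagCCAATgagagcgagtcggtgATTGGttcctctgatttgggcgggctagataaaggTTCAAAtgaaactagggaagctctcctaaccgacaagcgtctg

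In Cdc20, Kif22 and Top2a a core match stands just upstream of the start, and in Cenpf and Ccnb2 just after it. These promoters have CCAAT further upstream of that match, and in Cdc20 another CCAAT lies between the core match and the start. A match is a description of the letters and not of a bound site.

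**Figure D2:**
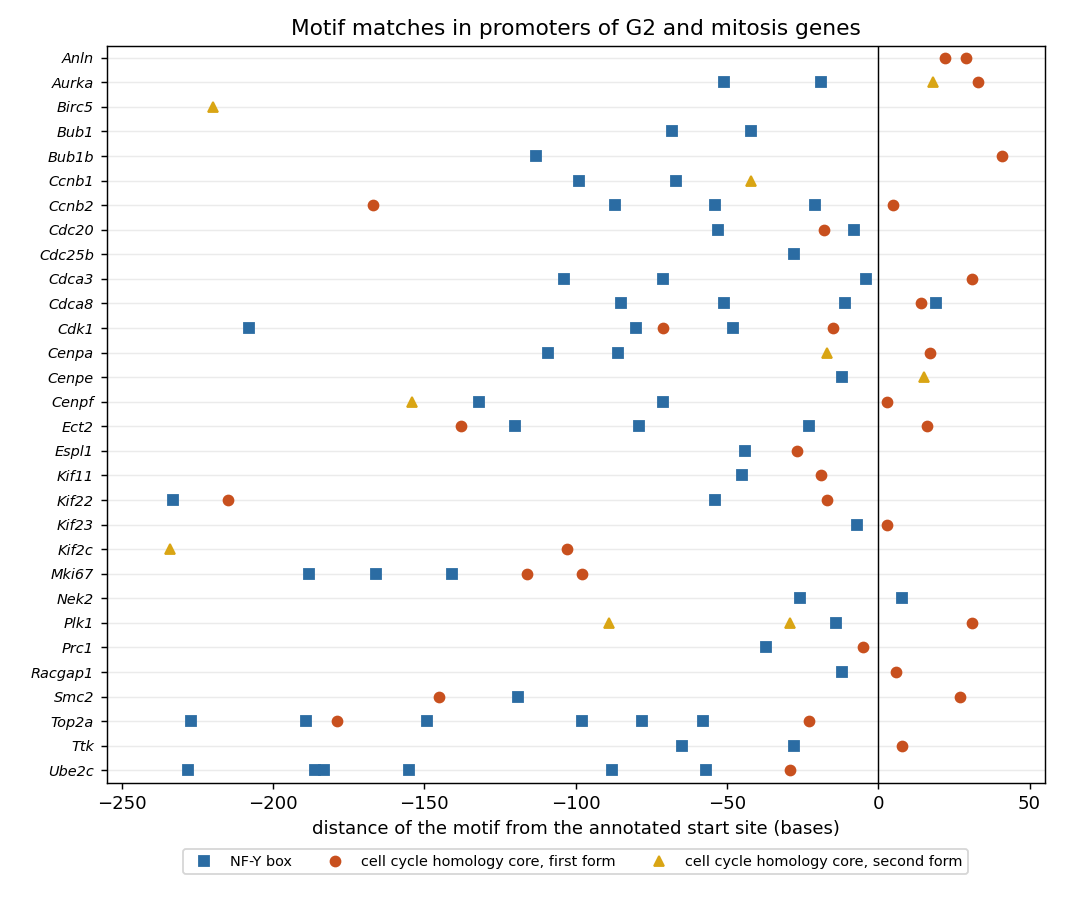
Position of motif matches in the promoters of 30 G2 and mitosis genes, as the distance in bases of the first base of each match from the annotated start (vertical line). Squares are CCAAT matches (NF-Y box), circles TTTGAA and triangles TTTAAA matches; 57 of 59 CCAAT matches lie upstream, and for genes with more than 1 annotated start 1 is drawn.

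CDK1 and its regulators were lower in bulge basal cells with the exception of Cdc25b. Cdk1, the mitotic kinase itself, had signals of 137 and 342 on the bulge basal arrays, against 750.2 and 658 on the total epidermis arrays, a 3.24-fold lower mean in bulge basal cells with a difference of -1.70 ± 0.55 (SE). Its partner Ccna2, cyclin A, had 225 and 407 on the bulge basal arrays, against 891 and 771 on the total epidermis arrays, and Ccnb2, a B-type cyclin, had 53.1 and 175 on the bulge basal arrays, against 382 and 369 on the total epidermis arrays. Another Ccna2 probe set above background gave -0.79, against the -1.45 of the one described. For each of the 3 genes both bulge basal arrays lay below both total epidermis arrays, and bulge basal replicate 2 stood closer to total epidermis than replicate 1. Without bulge basal replicate 1 the difference was -1.04 for Cdk1 and -1.10 for Ccnb2, and without bulge basal replicate 2 it was -2.36 and -2.82. Cdca3, which promotes mitotic entry through degradation of the CDK1 inhibitor Wee1, had 62.2 and 119 on the bulge basal arrays, against 181 and 189 on the total epidermis arrays, and it was not above background on the bulge basal arrays. The mean of the Cdca3 probe sets gave -0.46. Cdc25b, a phosphatase that activates CDK1, had 2535 and 1337 on the bulge basal arrays, against 1408 and 1067 on the total epidermis arrays, a difference of 0.59 ± 0.48 (SE) with a 95% interval of -0.63 to 1.80. Its groups overlapped. The related phosphatase gene Cdc25c had a fitted difference of -4.01, with an adjusted p of 0.0729 in limma and 0.0479 in limma-trend, but lay below background on all 4 arrays (4.1 and 5.9 on the bulge basal arrays, against 67.5 and 92.8 on the total epidermis arrays), so no fold is given.

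Other mitotic kinases were lower too. Plk1, which drives centrosome maturation and mitotic entry, had signals of 79.1 and 164 on the bulge basal arrays, against 431 and 377 on the total epidermis arrays, a 3.54-fold lower mean in bulge basal cells with a difference of -1.82 ± 0.49 (SE). Melk, a kinase expressed in dividing cells, had 10.1 and 59.6 on the bulge basal arrays, against 279 and 181 on the total epidermis arrays. Melk was below background on both bulge basal arrays, so its mean was at least 1.5-fold lower there. Aurka, the Aurora kinase of the centrosome, and Nek2, a centrosome kinase, were above background on 1 of the 4 arrays each, a total epidermis array, and both were lower in bulge basal cells without overlap, with the larger difference, -1.41, for Nek2.

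Genes of the spindle checkpoint had weak signals. Mad2l1, the checkpoint protein that binds Cdc20, had signals of 88.8 and 137 on the bulge basal arrays, against 343 and 407 on the total epidermis arrays, at least 2.49-fold lower in bulge basal cells. Neither bulge basal array reached background, and both total epidermis arrays did. The checkpoint kinase genes Bub1, Bub1b and Ttk were below background on all 4 arrays, with fitted differences from -2.10 to -0.75 that carry no fold.

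Among genes of anaphase onset, Cdc20, the activator of the anaphase promoting complex, had signals of 121 and 570.1 on the bulge basal arrays, against 1289 and 1394 on the total epidermis arrays. The mean was 5.1-fold lower in bulge basal cells, with a difference of -2.35 ± 0.78 (SE), and the 2 bulge basal arrays differed from each other more than the total epidermis arrays did. The Cdc20 difference was -1.23 without bulge basal replicate 1 and -3.47 without bulge basal replicate 2, and another Cdc20 probe set above background gave -1.49, while the mean of its probe sets gave -1.31. Ube2c, the ubiquitin-conjugating enzyme of that complex, had 73.5 and 277 on the bulge basal arrays, against 319.8 and 449 on the total epidermis arrays, and Pttg1, securin, had 1054 and 1899 on the bulge basal arrays, against 2477 and 5368 on the total epidermis arrays. Both were lower without overlap, by 2.66-fold and 2.58-fold, although their 95% intervals reached 0.40 and 0.07. For all 3 genes replicate 1 had the lower signal within each group.

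Genes of the chromosomal passenger complex and the kinetochore were lower for all 6 measured members. Incenp, the scaffold of the passenger complex, had signals of 779 and 722 on the bulge basal arrays, against 2317 and 2137 on the total epidermis arrays. Replicates lay close together and the mean was 2.97-fold lower in bulge basal cells, although the gene's other 2 probe sets were below background on all 4 arrays with differences of -1.46 and -1.72. Aurkb, the kinase of the same complex, had 74.7 and 129 on the bulge basal arrays, against 331 and 264 on the total epidermis arrays, at least 1.97-fold lower in bulge basal cells. Cenpa, the histone H3 variant of centromeres, had 96.3 and 195 on the bulge basal arrays, against 376 and 443 on the total epidermis arrays, and the kinetochore gene Cenpf had 137 and 187 on the bulge basal arrays, against 1133 and 519.8 on the total epidermis arrays. The Cenpf mean was 4.8-fold lower in bulge basal cells with a difference of -2.26 ± 0.52 (SE), while its other probe set, near background, gave -0.21. Birc5, survivin, and Cenpe, a kinetochore kinesin, were above background on 1 total epidermis array alone, with differences of -1.01 and -1.44.

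Spindle motors and assembly factors were lower in bulge basal cells for 4 of 5 genes. Nusap1, a microtubule-binding protein of the spindle, had signals of 205 and 272 on the bulge basal arrays, against 878 and 671 on the total epidermis arrays, a 3.25-fold lower mean with a difference of -1.70 ± 0.40 (SE). Another Nusap1 probe set, below background on all 4 arrays, gave -0.14, and the mean of the Nusap1 probe sets gave -0.92. Kif22, a chromosome-bound kinesin, had 98.3 and 413 on the bulge basal arrays, against 804 and 772 on the total epidermis arrays, and Kif11, the motor that separates spindle poles, had 86.1 and 67.1 on the bulge basal arrays, against 217 and 196 on the total epidermis arrays. All 3 were lower without overlap, and Kif11 was not above background in bulge basal cells. Other Kif11 probe sets gave -1.47 and -0.29. For Kif22 the difference was -0.93 without bulge basal replicate 1, and it was larger in size than the -1.97 of all 4 arrays without bulge basal replicate 2. Tpx2, the activator of Aurora A, was above background on 1 total epidermis array, with a difference of -1.68. Kif2c, a microtubule-depolymerising kinesin, had 127 and 205 on the bulge basal arrays, against 141 and 167 on the total epidermis arrays, a difference of 0.07 ± 0.43 (SE) with overlapping groups. Its other 3 probe sets gave -3.28, -0.85 and -0.45, and the first of these had log2 signals of 4.05 and 6.93 on the bulge basal arrays, against 8.72 and 8.82 on the total epidermis arrays, so the direction for Kif2c depended on the probe set.

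Genes of cytokinesis were lower for all 6 members. Anln, the actin-binding scaffold anillin of the cleavage furrow, had signals of 300.4 and 313 on the bulge basal arrays, against 2562 and 1278 on the total epidermis arrays. Its log2 signal averaged 8.26 ± 0.04 (SD, n = 2) in the bulge basal group and 10.82 ± 0.71 (SD, n = 2) in the total epidermis group, a 5.9-fold lower mean with a difference of -2.56 ± 0.48 (SE). Its limma test gave an adjusted p of 0.129, or 0.04 in the limma fit over genes with a group mean above background. Prc1, which bundles microtubules of the central spindle, had 249 and 396 on the bulge basal arrays, against 1103 and 921 on the total epidermis arrays, and its other probe set gave -1.66, close to the -1.68 of the one described. Ect2, the exchange factor that activates RhoA at the furrow, had 83.5 and 150.0 on the bulge basal arrays, against 336 and 258 on the total epidermis arrays. Its partner gene Racgap1 had 56.8 and 109 on the bulge basal arrays, against 157 and 173 on the total epidermis arrays, and Kif23, the kinesin of the same centralspindlin complex, had 43.5 and 118 on the bulge basal arrays, against 190.3 and 204 on the total epidermis arrays. Both of these centralspindlin genes were below background on both bulge basal arrays. Kif20a, a central spindle kinesin, was below background on all 4 arrays, with a fitted difference of -1.02.

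Genes of chromosome structure included the proliferation marker. Mki67, which encodes Ki-67, a coat of mitotic chromosomes, had signals of 249 and 502 on the bulge basal arrays, against 2618 and 1746 on the total epidermis arrays. Its log2 signal averaged 8.47 ± 0.72 (SD, n = 2) in the bulge basal group and 11.06 ± 0.41 (SD, n = 2) in the total epidermis group, a 6.05-fold lower mean with a difference of -2.60 ± 0.51 (SE). For Mki67 limma gave an adjusted p of 0.146, or 0.0472 in the limma fit over genes with a group mean above background. Both bulge basal arrays were above background for Mki67. Top2a, the topoisomerase that untangles sister chromatids, had 394 and 426 on the bulge basal arrays, against 1969.7 and 1112 on the total epidermis arrays, 3.61-fold lower in bulge basal cells. Another Top2a probe set, below background on all 4 arrays, gave -0.48. The condensin subunit genes Smc4 and Smc2 had differences of -0.99 ± 0.43 (SE) and -0.97 ± 0.50 (SE). Smc4 had 1865 and 1199.6 on the bulge basal arrays, against 3299.7 and 2673 on the total epidermis arrays, and its other 2 probe sets gave -0.96 and -0.93. Smc2 had 227 and 139 on the bulge basal arrays, against 466 and 261 on the total epidermis arrays, without overlap of the groups.

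**Figure D3:**
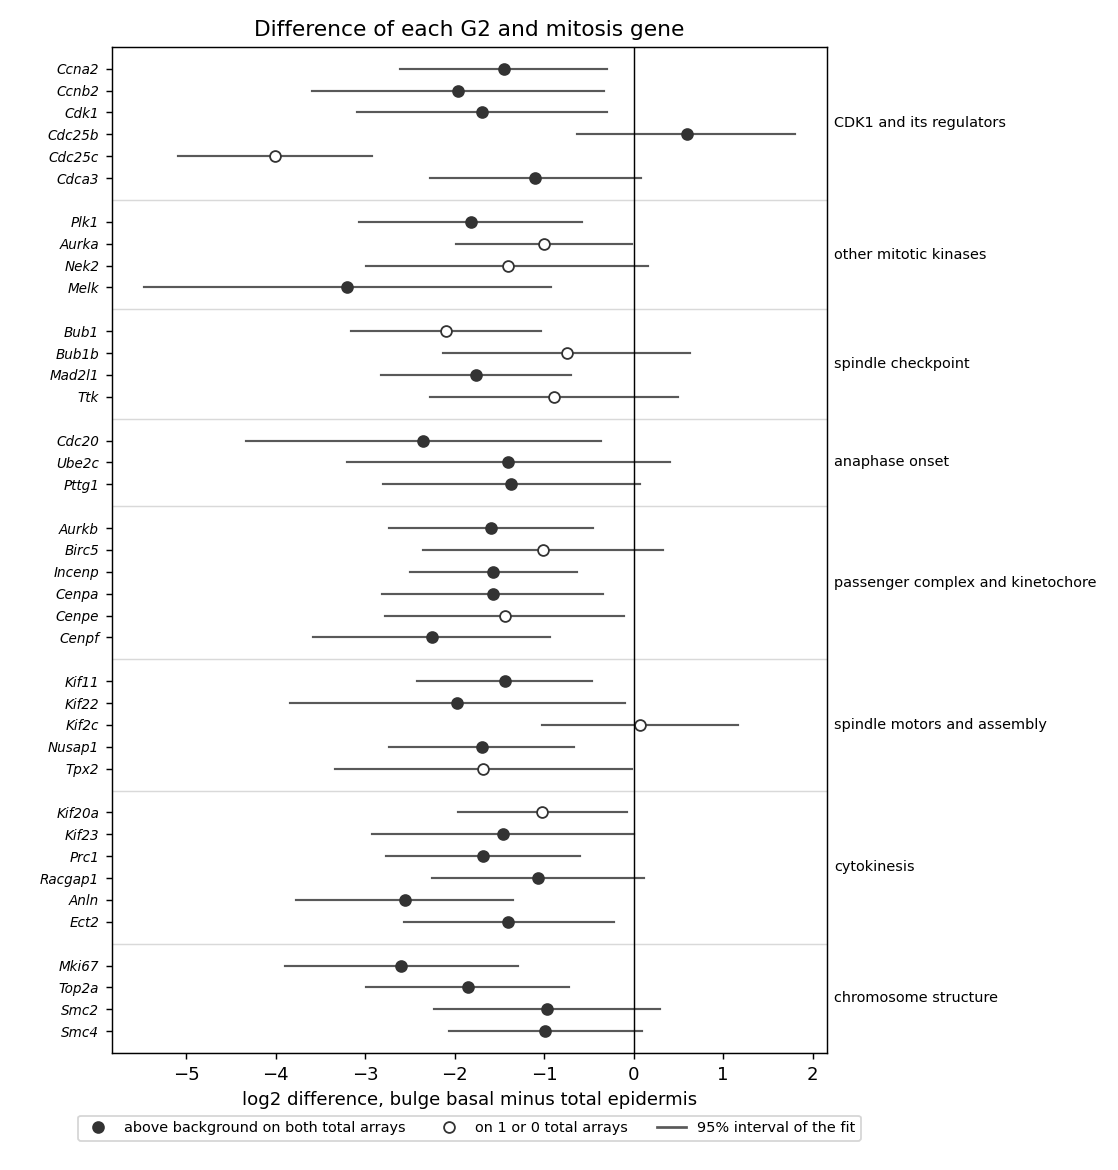
Log2 difference, bulge basal minus total epidermis, for the 38 genes by role (points), with the 95% interval of the limma fit (lines). Filled points are the 27 genes above background on both total epidermis arrays. Points lie left of 0 for 36 of 38 genes, with Cdc25b at 0.59 and Kif2c at 0.07 to the right.

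The genes with several probe sets numbered 18, and 23 of their 28 other probe sets had the same sign as the one described. Of the 8 other probe sets above background on both arrays of a group, 7 had the same sign, and the exception was that of Kif2c. Probe sets of 4 of the 38 genes (Aurkb, Cdc20, Incenp and Kif22) had the suffix _x_at and those of 2 (Prc1 and Pttg1) _s_at, types that can also detect other transcripts. Kif2c had 3 of the opposite signs, and the others were 0.05 for a Bub1 probe set and 0.33 for a Kif23 probe set, both below background on all 4 arrays.

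The replicate arrays of the bulge basal group were not alike for these genes. Bulge basal replicate 1 was below replicate 2 for 29 of 38 genes, 76.3%, against 47.6% of all genes tested, with a median gap of -0.74 on the log2 scale against 0.05 over all genes. For genes of anaphase onset the median gap was -1.92. For chromosome structure genes it was 0.26, with replicate 1 the lower for 2 of 4 (Mki67 and Top2a). In the total epidermis group the median gap between replicates was 0.21 over the 38 genes and 0.14 over all genes. Taken back from the log2 to the linear scale, a difference is a ratio of the groups. Leaving out either bulge basal array moved that ratio over 1.5-fold for 9 genes: Ccnb2, Cdk1, Melk, Ttk, Cdc20, Ube2c, Kif22, Tpx2 and Kif23. Leaving out total epidermis replicate 1 did so for Nek2 and Bub1b, and leaving out total epidermis replicate 2 for Nek2, Bub1b and Cenpe. Without bulge basal replicate 1 the median difference of the set was -1.15, and without bulge basal replicate 2 it was -1.91. Several marker lists were lower on bulge basal replicate 1 than on replicate 2: suprabasal for 6 of 6 genes, sebaceous gland for 6 of 6, Langerhans cell and macrophage for 10 of 12, T cell for 7 of 9, hair germ, matrix and shaft for 5 of 8 and infundibulum and isthmus for 4 of 6. The median gaps were -1.01, -1.08, -0.38, -0.43, -0.23 and -0.83 in the same order. Suprabasal sums were 22577 and 59265 on the bulge basal arrays, against 40661 and 61624 on the total epidermis arrays, and sebaceous gland sums were 1240 and 2659 on the bulge basal arrays, against 4857 and 3150 on the total epidermis arrays. Replicate 1 was the lower for 2 of 10 bulge stem cell, 3 of 7 melanocyte, 2 of 8 fibroblast and 0 of 6 endothelial markers. The part of these cells in the replicate gap was not tested.

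**Figure D4:**
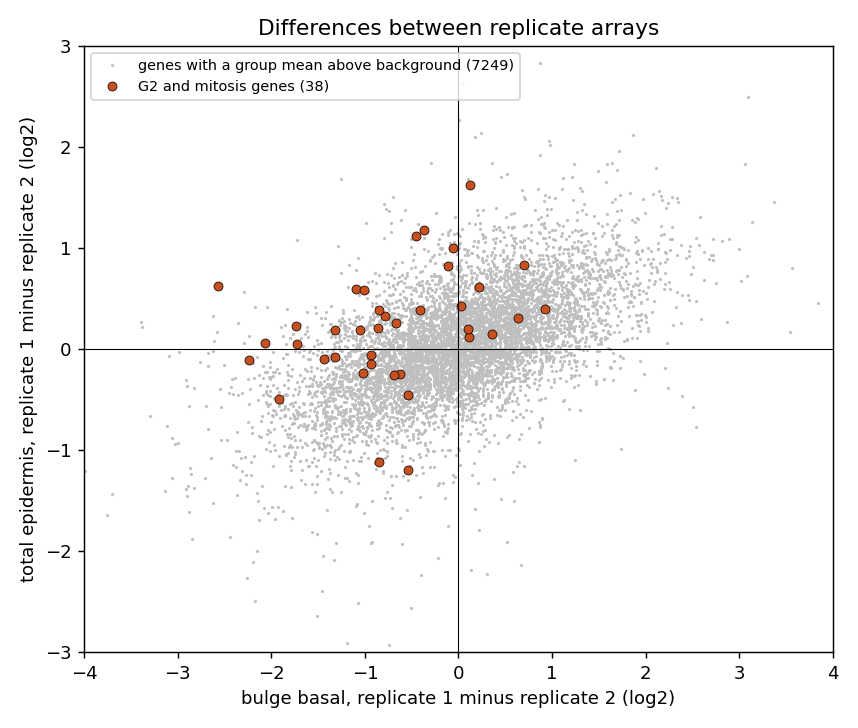
Difference between replicate arrays (replicate 1 minus replicate 2, log2) in the bulge basal group (horizontal axis) and in the total epidermis group (vertical axis), for 7249 genes with a group mean above background (grey) and the 38 G2 and mitosis genes (orange). Of the 38, 29 lie left of 0, and genes beyond the axes are not drawn.

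Other genes of the cell cycle were compared in 6 lists of related genes, and limma called 0 of them in either direction. The limma fit over genes with a group mean above background called some lower, against 1.63% of its genes. They were Cks2 (adjusted p 0.0243), Sgo1 (0.0297) and Stil (0.0489), further G2 and mitosis genes, and the replication gene Uhrf1 (0.0375). Sgo1, Stil and Uhrf1 were below background on both bulge basal arrays and passed this filter only through total epidermis. Of 37 further G2 and mitosis genes, 25 were lower without overlap and 3 higher, against 20.5% and 18% of all genes tested. Their median difference was -1.22. Cks2, a CDK1-binding subunit, had signals of 676 and 1045 on the bulge basal arrays, against 5720.3 and 5817 on the total epidermis arrays, a 6.86-fold lower mean with an adjusted p of 0.101 in limma and 0.038 in limma-trend. Stmn1, the microtubule-destabilising protein stathmin, had 2802 and 6841 on the bulge basal arrays, against 10323 and 15405 on the total epidermis arrays, whereas Tubb5, a β-tubulin that cells also use outside mitosis, had 2506 and 3778 on the bulge basal arrays, against 2845 and 3279 on the total epidermis arrays with overlapping groups. Of 38 DNA replication and S phase genes, 27 were lower and 0 higher without overlap, against the same 20.5% and 18% of all genes. The median for replication genes was -0.83, smaller in size than the -1.52 of the set described here, and this gap between lists has no test. Pcna, the polymerase clamp, had a difference of -1.12 ± 0.53 (SE), Mcm7, a helicase subunit, -0.67 ± 0.38 (SE) and Rrm2, a ribonucleotide reductase subunit, -1.03 ± 0.57 (SE).

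The 4 other lists had medians between -0.47 and 0.18, and their counts of genes without overlap stand beside 20.5% lower and 18% higher over all genes tested. The 12 measured genes of the anaphase promoting complex (core subunits and the activator gene Fzr1) had a median of 0.18, with 0 lower and 2 higher without overlap. Anapc5, Cdc16 and Anapc13 had differences of 0.18, -0.01 and 0.19. The 10 other condensin and cohesin genes had a median of -0.47, with 4 lower and 0 higher, and the cohesin genes Stag2, Rad21 and Smc1a had 0.13, -0.33 and -0.49. Of 13 genes of the DREAM and MuvB complexes and of activators of G2 and mitosis genes, 3 were lower and 2 higher, with a median of -0.09. Rbbp4, a MuvB subunit, had 0.13, Nfyc, an NF-Y subunit, 0.50 and Tfdp1, an E2F partner, -0.54. The 7 CDK inhibitor genes had a median of 0.14, with 2 lower and 2 higher. Cdkn1a, p21, had signals of 955 and 2715 on the bulge basal arrays, against 2874 and 6868 on the total epidermis arrays, while Cdkn1b, p27, had 542 and 512 on the bulge basal arrays, against 488 and 329.8 on the total epidermis arrays. The groups of Cdkn1a and of Cdkn1b did not overlap, with differences of -1.46 ± 0.71 (SE) and 0.39 ± 0.41 (SE). Their nearest arrays stood close, at 2715 and 2874 for Cdkn1a and 512 and 488 for Cdkn1b. Neither gene passed the test in limma (adjusted p of 0.6 and 0.882), so opposite directions are not established. Cdkn2c, p18, had a difference of -0.62.

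**Figure D5:**
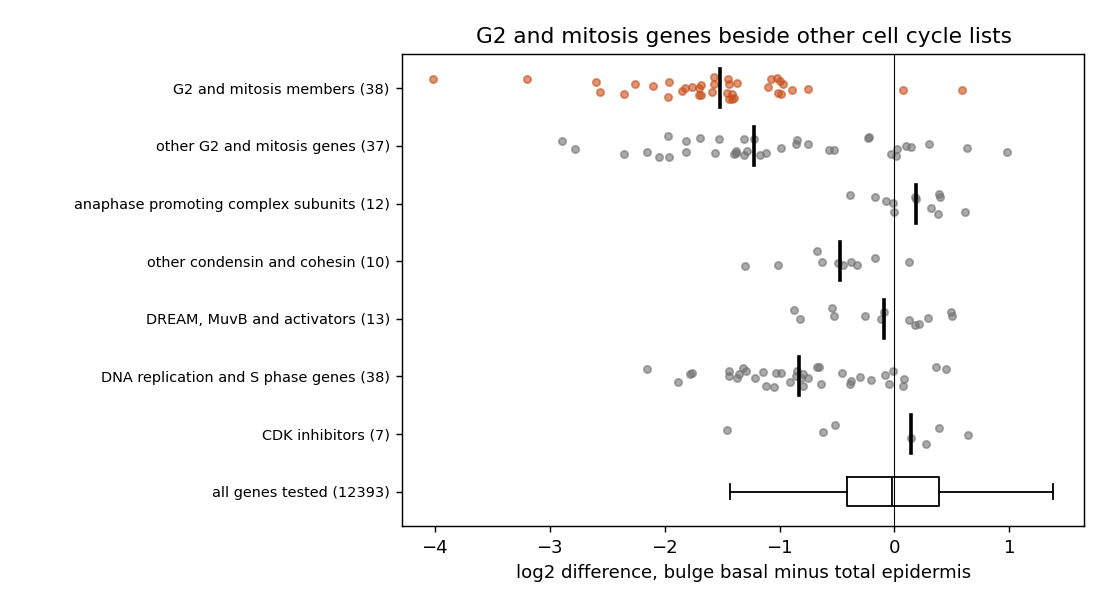
Log2 difference, bulge basal minus total epidermis, for genes of the G2 and mitosis set (orange), of 6 other cell cycle lists (grey) and of all genes tested (box of quartiles, whiskers at the 5th and 95th percentiles), with the number of genes in brackets and black bars at list medians. The median was -1.52 for the G2 and mitosis set, -0.83 for replication genes and 0.18 for anaphase promoting complex subunits.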

How the data were processed

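Per the submitters' processing notes, GCOS, R 2.15.1, affy 1.36 and RMA were used, with no role or order given. The deposited intensity values are linear probe set signals with the same mean of 500.0 on every array after trimming 2% at each end. Which tool made them is not given in the sources used here. These linear values were converted to log2 before any test.

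Of 22690 probe sets, 64 were controls, 20380 had 1 symbol, 691 several and 1555 none; 20351 of those with 1 symbol were matched by Entrez ID to RefSeq names. Each of 12393 genes was represented by its probe set with the highest mean. The background level is the 95th percentile of 67 receptor genes, a log2 signal of 7.23. Where a group fell under it on both of its arrays, the fold is a bound, at least N-fold, computed against the higher of background and the gene's own signal per array. Where a group fell under it on 1 array, the fold used both signals as measured. This was so on the bulge basal arrays for Cdk1, Plk1, Cdc20, Ube2c and Cenpf.

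Groups were compared with limma 3.58.1 in R 4.3.3 (lmFit, then eBayes, group as the only term). Two-sided p-values were adjusted by Benjamini-Hochberg across the genes, and calls used an adjusted p under 0.05. On simulated data with 12393 genes for this comparison, this fit called 0.299% of genes given a true log2 change of 1, 4.18% of those given 2 and 84.7% of those given 4, and limma-trend 2.24%, 32.2% and 89.8%. The simulated noise was independent between arrays, with a common spread for genes of similar signal. Replicate differences in the data correlated between the groups at r = 0.579. The simulated shares therefore need not hold for these arrays, on which limma called 0 genes. The members and lists were chosen with earlier results of these data known. Members above background on both arrays of at least 1 group are given with all 4 signals. Other lists are given by their 3 genes with the highest mean and any called by limma-trend or the group mean filter. Promoters are given for up to 6 members with both motifs. Alternatives covered array scaling, variance model, a log2 of signal plus 32, filters, probe set rules, a replicate block and each array left out. Probe sets with several or no symbols were not used.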

Additional observations from a re-analysis of the deposited data

How the results depend on the processing

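The direction of the 38 single differences was the same in every fixed alternative run, except for Kif2c, at -1.13 with the mean of probe sets, -0.45 with probe sets without a shared suffix, -0.27 without bulge basal replicate 2 (0.42 without replicate 1) and -0.05 without total epidermis replicate 1. The median difference of the set lay between -1.91 and -1.15 with 1 array left out. The count of members lower without overlap cannot fall when an array is removed, so it gives no check here. Raised to background, an alternative added after seeing the data, the median was -0.95. Over genes above background on all arrays, 9 of 10 members were lower without overlap. Over genes with a mean over the 4 arrays above background, a filter added later, it was 21 of 23. Fewer genes were tested under these filters, and the share of all genes lower without overlap was not computed for them.

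Against 0 genes called by limma, 134 were called by limma-trend (1 member), 37 with a log2 of signal plus 32 (0 members), 222 over genes with a group mean above background (2 members), 61 over genes above background on all arrays (0 members), and, in fits added later, 202 with limma-trend and that group mean filter (2 members) and 142 over genes with a mean over the 4 arrays above background (1 member, Anln). With 1 array left out, limma called 0 members, limma-trend 0 to 13 (0 to 388 of 12393 genes) and the group mean filter 1 to 23 (206 to 743 of 7249 genes). In such fits the lone array is assumed to vary like the other group.

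Replicate numbers are shared between the groups but no label pairs them. Replicate differences correlated between the groups at r = 0.579 across 7249 genes, which are not independent. With the replicate block limma called 0 genes and 0 members, with limma-trend and the replicate block 19 members and 917 of 12393 genes (7.4%) were called, and with the group mean filter and the replicate block 27 members and 1120 of 7249 genes (15.5%); these fits leave few residual degrees of freedom.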

Other observations

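The genes in this paragraph were chosen after their values were seen. Foxm1, a transcription factor that activates late cell cycle genes, had signals of 231 and 179 on the bulge basal arrays, against 244 and 193 on the total epidermis arrays, a difference of -0.09 ± 0.40 (SE) with a 95% interval of -1.10 to 0.91. Mybl2, which encodes B-MYB, was below background on all 4 arrays, with 76.1 and 90.8 on the bulge basal arrays, against 116 and 70.4 on the total epidermis arrays. The groups overlapped for both genes. Wee1, the kinase that inhibits CDK1, had 1674 and 281 on the bulge basal arrays, against 4447 and 1800.2 on the total epidermis arrays, a difference of -2.05 ± 0.96 (SE) that did not pass the test in limma (adjusted p of 0.587), although the groups did not overlap.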
